A study of Mus musculus with 18 samples.

Results

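The genes described here are 6 members of the BAFF, CD40 and Fas branch of the tumor necrosis factor (TNF) family: the BAFF receptors Tnfrsf13c (protein BAFF-R), Tnfrsf13b (TACI) and Tnfrsf17 (BCMA), their ligand Tnfsf13b (BAFF), the costimulatory receptor Cd40 and the death receptor Fas. They were found by symbol among the 23420 genes of each file, and all 6 were present. The 18 libraries were bulk mRNA sequencing of bead-purified splenic B cells in 6 groups of 3, and asked how exchanging the signaling (TIR) domains of TLR7 and TLR9, the endosomal sensors of RNA and DNA, changes the response of B cells. All mice were MRL/lpr, a lupus-prone strain, were 5 to 7 weeks old, and carried the lpr mutation of Fas, the controls included. In the first arm, 5-week-old female mice lacked Tlr7 (Tlr7-/-). They carried either a single Tlr9 copy (labelled TLR9het, called Tlr9het here) or the Tlr997 allele. This allele is a TLR9 with the TIR domain of TLR7, made by CRISPR/Cas9 in the endogenous Tlr9 locus. The treatment protocol names the control of this arm Tlr9-/- Tlr7-/-, whereas the sample titles give Tlr9het, which was followed here. Their B cells were left unstimulated or received the TLR9 agonist CpG (ODN 1826) at 10 µg/ml for 4 h. In the second arm, male Tlr9-/- mice of 5 to 7 weeks carried the Tlr779 allele, a TLR7 with the TIR domain of TLR9 made in the endogenous Tlr7 locus. Their cells were left unstimulated or received the TLR7 agonist CL097 at 5 µg/ml for 4 h. Controls with an intact Tlr7 were not analysed here for this arm. It also differs from the first in sex, age range, genotype and agonist, so no test was made between arms.

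BAFF is a survival factor that myeloid and stromal cells make for mature B cells. BAFF-R binds BAFF alone and signals survival through TRAF3 and the alternative NF-κB pathway. TACI and BCMA also bind the related ligand APRIL, with TACI acting on innate-like and class-switched responses and BCMA on plasma cells. CD40 receives help from T cells that carry CD40 ligand. Fas delivers a death signal to activated lymphocytes through FADD and caspase-8, and in MRL/lpr mice a transposable element in an intron of Fas interferes with the formation of its full-length transcript, so that little functional receptor is made.

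The genes lie apart in the genome (GRCm38, GENCODE M21 annotation), and none of them shared exon bases with another gene. Tnfrsf13c is on chromosome 15 (82221743 to 82224369, minus strand), Tnfrsf13b on chromosome 11 (61126755 to 61149372, plus strand) and Tnfrsf17 on chromosome 16 (11313812 to 11320074, plus strand). Tnfsf13b is on chromosome 8 (10006467 to 10039072), Cd40 on chromosome 2 (165055627 to 165072948) and Fas on chromosome 19 (34290666 to 34327772), all on the plus strand. RefSeq promoter windows, from 250 bases before a transcript start to 50 bases after it (GRCm38.p6), were matched by symbol for 5 of the 6 genes, and the window of Cd40 is not shown. Windows are printed below for TACI and Fas, whose transcripts rose under both agonists, and for BAFF-R, whose transcript did not, with the gene strand read 5′ to 3′. Capitals mark matches to GGGNNNNNCC, the spacing of NF-κB sites, on either strand.
Tnfrsf13b, chr11:61126505-61126804, plus strand: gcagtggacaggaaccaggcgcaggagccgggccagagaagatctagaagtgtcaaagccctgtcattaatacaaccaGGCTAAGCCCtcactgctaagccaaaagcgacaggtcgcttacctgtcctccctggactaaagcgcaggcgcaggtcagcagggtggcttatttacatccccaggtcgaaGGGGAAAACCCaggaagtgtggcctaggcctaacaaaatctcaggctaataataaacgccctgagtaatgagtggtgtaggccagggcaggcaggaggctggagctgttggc
Tnfrsf13c, chr15:82224331-82224630, minus strand: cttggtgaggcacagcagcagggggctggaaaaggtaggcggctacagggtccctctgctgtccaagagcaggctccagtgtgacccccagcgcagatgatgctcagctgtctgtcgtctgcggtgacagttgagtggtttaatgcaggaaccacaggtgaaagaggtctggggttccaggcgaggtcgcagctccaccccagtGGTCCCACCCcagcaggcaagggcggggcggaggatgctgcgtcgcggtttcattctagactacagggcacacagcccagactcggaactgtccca
Fas, chr19:34290409-34290708, plus strand: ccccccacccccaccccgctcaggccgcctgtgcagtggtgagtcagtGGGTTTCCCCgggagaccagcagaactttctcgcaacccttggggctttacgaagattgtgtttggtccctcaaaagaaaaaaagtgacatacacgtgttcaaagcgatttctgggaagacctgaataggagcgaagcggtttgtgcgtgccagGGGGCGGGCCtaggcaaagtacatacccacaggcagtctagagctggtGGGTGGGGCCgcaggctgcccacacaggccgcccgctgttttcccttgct
The TACI window held matches at bases -172 to -163 and, overlapping each other, at -62 to -52 from the transcript start. The BAFF-R window held 1, at -46 to -37, and the Fas window held 3, at -202 to -193, at -48 to -39 and at the transcript start itself. Of the 32851 windows in the table, 50.8% held at least 1 match, so that the presence of a match distinguished little. The stricter NF-κB consensus, whose matches are a subset of these, was in 8.46% of all windows and in none of the 6 windows of these genes (Tnfsf13b has 2 transcript starts). A motif of interferon response elements, GAAANNGAAA, was in 3.44% of all windows and in 2 of those 6, at bases -16 to -7 of the later Tnfsf13b start and at -101 to -92 of Tnfrsf17.

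The files gave log2 CPM (reads of a gene scaled to a common library size) after the authors' normalization and no counts, so the depth of each library is unknown. A value of 3 counts corresponded to about -2.24 log2 CPM, averaged over the libraries. Libraries of a group correlated at 0.944 or above over 11676 expressed genes, and Tlr997 unstimulated replicate 3 stood apart, since without it the lowest correlation was 0.976. The 6 B cell markers were all over 0 log2 CPM in every library, and their summed level fell with stimulation from 6213 to 1683 CPM in Tlr9het, from 5926 to 2900 CPM in Tlr997 and from 6423 to 2750 CPM in Tlr779. The fall was not shared by all 6. With CpG in Tlr9het and Tlr997, the log2 fold change was -3.27 and -3.10 for Cd79a, -0.75 and 0.41 for Ms4a1, and 0.54 and 0.47 for Pax5. In Tlr779, Pax5 averaged 7.24 log2 CPM without and 7.26 with CL097. The sample titles number the 3 libraries of each group and do not name mice. In such bulk samples, fewer cells of a type and less RNA per cell cannot be told apart.

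In unstimulated cells the BAFF receptors differed widely in level. Per kilobase of exon, BAFF-R transcript was the most abundant of the 6 in each genotype, at 77.4 ± 7.79 (SD, n = 3) CPM per kb in Tlr9het, 84.2 ± 13.4 in Tlr997 and 96.4 ± 7.12 in Tlr779. CD40 came next at 39.4 ± 2.35, 38.5 ± 1.19 and 33.8 ± 2.35 CPM per kb, followed by TACI at 9.82 ± 1.02, 6.92 ± 2.13 and 11.6 ± 2.05 CPM per kb in the same genotypes. Fas lay far lower, between 0.703 ± 0.012 and 0.782 ± 0.224 CPM per kb. BCMA averaged between 0.118 and 0.336 CPM per kb and BAFF between 0.022 and 0.053 CPM per kb. The libraries of BAFF-R, CD40, TACI, Fas and BCMA did not overlap with those of the next gene in this order within any unstimulated genotype, except that BCMA and BAFF overlapped in Tlr997.

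Stimulation reordered the receptors. With CpG, CD40 was the most abundant of the 6, at 144 ± 3.51 CPM per kb in Tlr9het and 135 ± 9.12 in Tlr997. TACI passed BAFF-R in Tlr9het, with 51.1 ± 2.04 against 45.5 ± 0.395 CPM per kb and no overlap between the libraries, but not in Tlr997, with 43.1 ± 1.62 against 64.6 ± 5.65 CPM per kb. With CL097, BAFF-R at 89.6 ± 8.77 and CD40 at 81.5 ± 11.5 CPM per kb overlapped, and TACI stood at 33.7 ± 2.66 CPM per kb. Fas rose to between 2.62 and 3.59 CPM per kb over the stimulated groups and remained below the 3 abundant receptors.

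**Figure D1:**
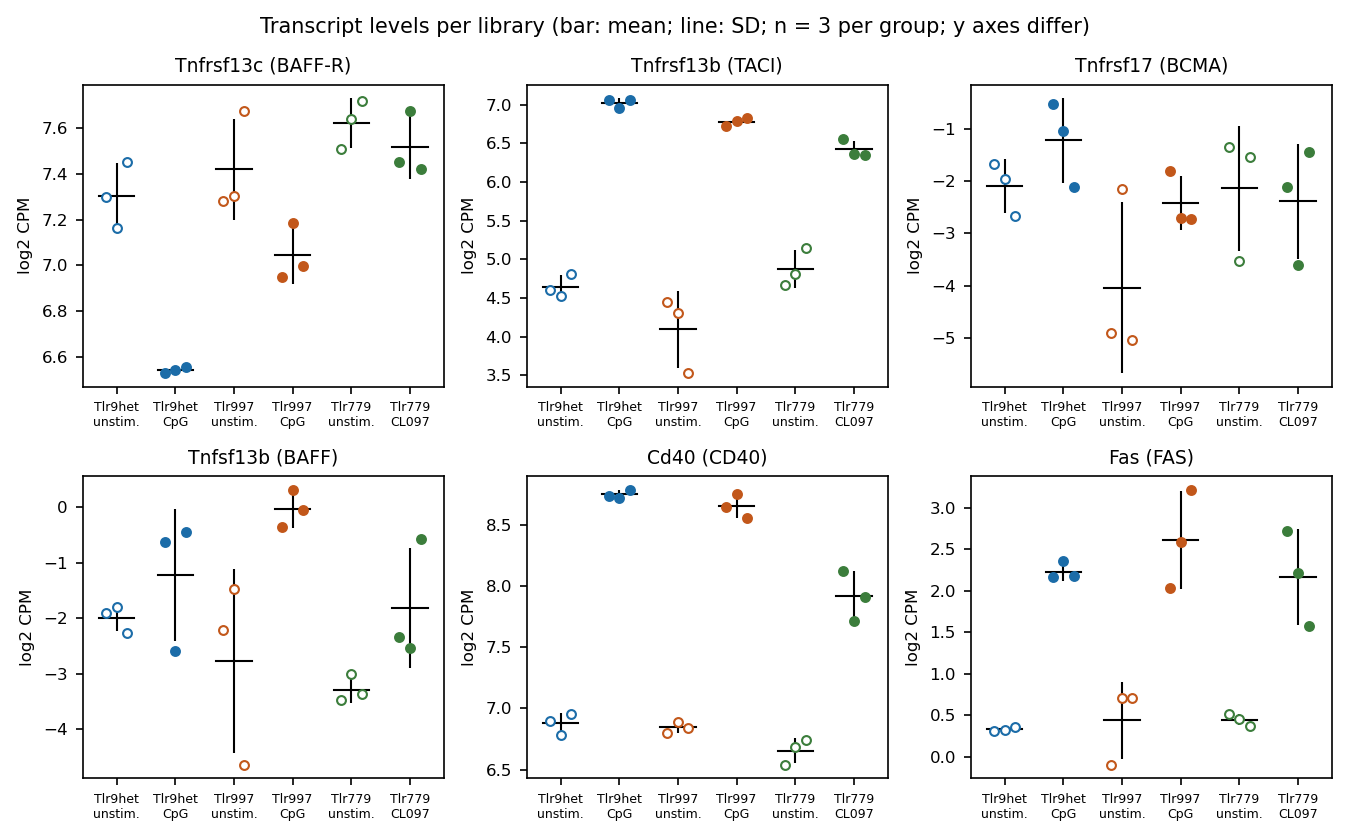
Level of each gene in log2 CPM in each of the 18 libraries (points, open for unstimulated and filled for stimulated), with the group mean (bar) and SD (line), n = 3 per group, and y axes that differ between panels. TACI, CD40 and Fas lay higher in every stimulated library than in any unstimulated one, BAFF-R was lowest in Tlr9het with CpG, and BCMA and BAFF scattered between -5.05 and 0.32 log2 CPM.

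Of the 6 genes, 4 passed the filter on low values (over 0 log2 CPM in at least 3 of the fitted libraries) and were tested with limma across all genes that passed. BCMA and BAFF did not pass in either arm. Calls needed a Benjamini-Hochberg adjusted p under 0.05 and a log2 fold change past 0.5 in either direction. CpG in Tlr9het raised 3 of the 4 tested (TACI, CD40 and Fas), where 29.7% of 11494 genes were called higher, and lowered 1 (BAFF-R), where 28.2% were called lower. CpG in Tlr997 raised the same 3 and lowered none past the fold change threshold, against 29.6% called higher and 26.0% called lower over all genes. CL097 in Tlr779 again raised these 3 and lowered none, where 22.7% of 11082 genes were called higher and 23.6% lower. The median log2 fold change of the 4 tested genes was 1.88, 1.99 and 1.41 in the 3 responses, beside 0.04, 0.07 and -0.02 over all genes tested. The 2 CpG responses and the contrasts between genotypes use the same 12 libraries and so are not independent of each other.

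BAFF-R, the receptor through which BAFF maintains mature B cells, was the only one of the tested genes that fell. In Tlr9het it stood at 7.298, 7.16 and 7.45 log2 CPM without stimulus and at 6.53, 6.54 and 6.56 log2 CPM with CpG. In Tlr997 the values were 7.28, 7.301 and 7.67 log2 CPM without and 6.95, 7.18 and 7.00 log2 CPM with CpG. In both genotypes all stimulated libraries lay below all unstimulated ones, and the stimulated Tlr9het libraries were the lowest of all 18. The fall in Tlr9het was called (log2 fold change -0.76, SE 0.10, limma adjusted p = 1.61e-05). In Tlr997 the log2 fold change was -0.38 (SE 0.10, limma adjusted p = 0.00523), which passed the threshold on p but not that on fold change. In Tlr779 the libraries stood at 7.51, 7.64 and 7.72 log2 CPM without and at 7.45, 7.67 and 7.42 log2 CPM with CL097. Those groups overlapped, and the log2 fold change of -0.11 (95% interval -0.32 to 0.10, limma adjusted p = 0.331) was not called.

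TACI, a receptor for both BAFF and APRIL, showed the largest CpG response of the 4 tested genes. Its unstimulated libraries stood at 4.60, 4.52 and 4.81 log2 CPM in Tlr9het, and those with CpG at 7.06, 6.96 and 7.06 log2 CPM. In Tlr997 they stood at 4.45, 4.31 and 3.53 log2 CPM without and at 6.73, 6.79 and 6.83 log2 CPM with CpG. The groups were far apart in both genotypes, and the lowest value of all belonged to Tlr997 unstimulated replicate 3, the library that stood apart. The rise was 5.22-fold in Tlr9het (log2 fold change 2.38, SE 0.18, limma adjusted p = 3.77e-08) and 6.46-fold in Tlr997 (log2 fold change 2.69, SE 0.18, limma adjusted p = 1.285e-08). These log2 fold changes lay at the 97.2 and 97.8 percentiles of all genes tested. In Tlr779, TACI stood at 4.67, 4.81 and 5.15 log2 CPM without and at 6.55, 6.36 and 6.36 log2 CPM with CL097. The groups did not overlap, and the rise was 2.92-fold (log2 fold change 1.55, SE 0.13, limma adjusted p = 3.14e-05).

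Set against each other per kilobase, TACI and BAFF-R moved toward equal levels. As a log2 ratio of TACI to BAFF-R per kb, Tlr9het libraries lay at -3.01, -2.96 and -2.96 without stimulus and at 0.21, 0.10 and 0.18 with CpG. Tlr997 libraries lay at -3.16, -3.32 and -4.47 without and at -0.54, -0.71 and -0.48 with CpG. Tlr779 libraries lay at -3.15, -3.15 and -2.89 without and at -1.22, -1.63 and -1.39 with CL097. The mean ratio thus went from 0.127 to 1.12 in Tlr9het, from 0.0799 to 0.669 in Tlr997 and from 0.12 to 0.376 in Tlr779. The 3 stimulated groups did not overlap with each other in this ratio, which is given as a description, since the lengths are those of the annotation and not of the transcripts in these cells.

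**Figure D2:**
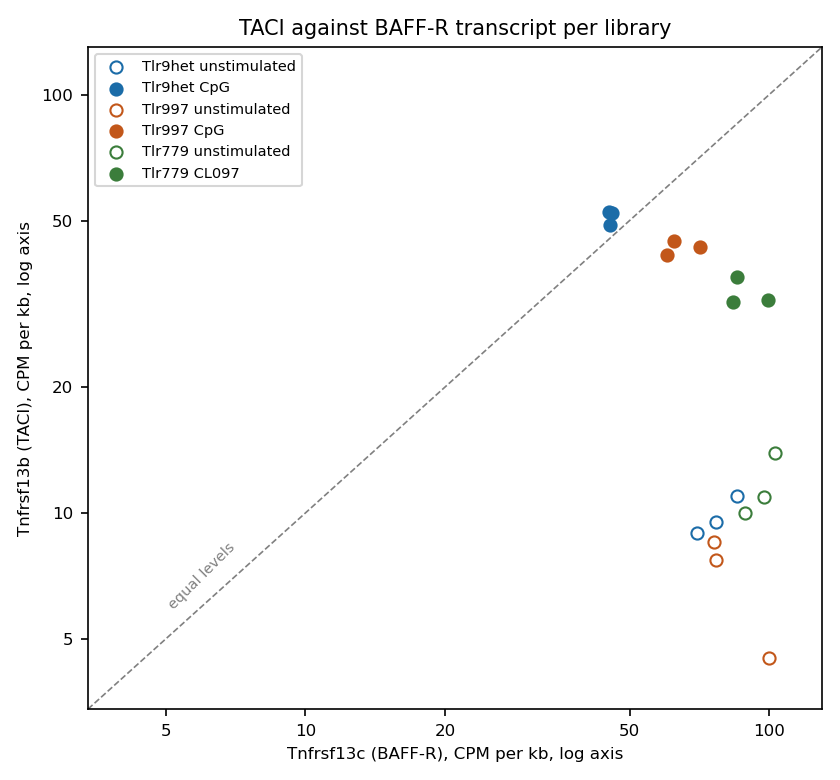
TACI (y axis) against BAFF-R (x axis) transcript in CPM per kb of exon on log axes, 1 point per library, open for unstimulated and filled for stimulated, with a dashed line at equal levels. Only the 3 Tlr9het libraries with CpG lie above the line, and all unstimulated libraries lie far below it.

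BCMA, which maintains plasma cells, was close to the level of 3 counts in most libraries. In Tlr9het it was at -1.67, -1.96 and -2.68 log2 CPM without and at -0.52, -1.04 and -2.10 log2 CPM with CpG. In Tlr997 it was at -4.91, -2.15 and -5.05 log2 CPM without and at -1.81, -2.71 and -2.73 log2 CPM with CpG. In Tlr779 it was at -1.35, -3.52 and -1.54 log2 CPM without and at -2.11, -3.60 and -1.45 log2 CPM with CL097. The stimulated and unstimulated groups overlapped in each genotype. Fitted with no filter on low values, over all 23420 genes, BCMA was not called in any comparison (lowest limma adjusted p = 0.174, CpG in Tlr997). A difference in BCMA was not detectable at these levels.

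BAFF, the ligand, was also scarce in these B cell preparations. In Tlr9het it was at -1.91, -1.80 and -2.27 log2 CPM without and at -0.63, -2.59 and -0.45 log2 CPM with CpG, and the groups overlapped. In Tlr997 it was at -2.21, -1.47 and -4.64 log2 CPM without and at -0.36, 0.32 and -0.06 log2 CPM with CpG, and the groups did not overlap. In Tlr779 it was at -3.48, -3.01 and -3.37 log2 CPM without and at -2.34, -2.53 and -0.56 log2 CPM with CL097, again without overlap. With no filter on low values, the log2 fold change with CpG in Tlr997 was 2.74 (95% interval 0.81 to 4.67, limma adjusted p = 0.0338), past both thresholds of a call. The unstimulated replicate 3 was under the level of 3 counts and is the library that stood apart, and BAFF was not refitted without it. The CpG response in Tlr9het (0.77, limma adjusted p = 0.697) and the CL097 response (1.48, limma adjusted p = 0.191) were not called in that fit. BAFF is made by myeloid cells. The summed level of 7 macrophage markers went from 235 (range 209 to 273) to 163 (157.5 to 167) CPM in Tlr9het, from 221 (125 to 318) to 148 (108 to 197) CPM in Tlr997 and from 302 (180.5 to 464) to 142 (92.7 to 202) CPM in Tlr779. In each group 6 or 7 of these 7 markers were over 0 log2 CPM in all 3 libraries. Lyz2 was called lower in all 3 responses and Csf1r with CL097, whereas the integrin Itgam was called higher with CpG in Tlr997 (log2 fold change 0.98, limma adjusted p = 0.0288). The summed level of 7 dendritic cell markers went from 42.6 (range 41.4 to 43.7) to 79.1 (73.2 to 86.4) CPM in Tlr9het, from 43.0 (40.7 to 44.2) to 85.0 (73.4 to 92.4) CPM in Tlr997 and from 39.9 (32.3 to 46.1) to 86.2 (76.8 to 101) CPM in Tlr779. Of the 5 tested, the transcription factor gene Zbtb46 was called higher in all 3 responses and Flt3 with CL097. The sums rose mostly through Zbtb46, which averaged 3.91 log2 CPM without and 5.71 with CpG in Tlr9het, and 3.92 and 5.78 in Tlr997. In Tlr779 it averaged 3.45 without and 5.67 with CL097. Itgax and Siglech averaged lower with stimulus in each genotype. The median log2 fold change of the 5 tested was -0.45, -0.38 and 0.23 in the 3 responses. The part of RNA from these cells in the level of BAFF was not tested.

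CD40, the receptor for T cell help, rose in both genotypes of the first arm. It stood at 6.90, 6.78 and 6.96 log2 CPM in Tlr9het without stimulus and at 8.74, 8.72 and 8.79 log2 CPM with CpG. In Tlr997 it stood at 6.80, 6.89 and 6.84 log2 CPM without and at 8.65, 8.75 and 8.56 log2 CPM with CpG. Unstimulated and stimulated libraries were far apart, and the genotypes overlapped under each condition. The rise was 3.66-fold in Tlr9het (log2 fold change 1.87, SE 0.06, limma adjusted p = 1.52e-11) and 3.50-fold in Tlr997 (log2 fold change 1.81, SE 0.06, limma adjusted p = 2.86e-11). In Tlr779 it stood at 6.54, 6.68 and 6.74 log2 CPM without and at 8.12, 7.72 and 7.91 log2 CPM with CL097. These groups did not overlap either, and the rise was 2.40-fold (log2 fold change 1.26, SE 0.11, limma adjusted p = 3.45e-05).

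Fas, which carries the lpr mutation in every mouse here, was transcribed at a low level and rose with both agonists. In Tlr9het it stood at 0.32, 0.33 and 0.37 log2 CPM without and at 2.16, 2.35 and 2.17 log2 CPM with CpG. In Tlr997 it stood at -0.09, 0.71 and 0.71 log2 CPM without and at 2.03, 2.58 and 3.21 log2 CPM with CpG. In Tlr779 it stood at 0.51, 0.45 and 0.38 log2 CPM without and at 2.72, 2.22 and 1.57 log2 CPM with CL097. Every stimulated library lay above every unstimulated one, although the stimulated Tlr997 and Tlr779 libraries spread over more than 1 log2 unit. The rise was 3.71-fold with CpG in Tlr9het (log2 fold change 1.89, SE 0.32, limma adjusted p = 0.00011), 4.48-fold with CpG in Tlr997 (2.17, SE 0.32, limma adjusted p = 3.52e-05) and 3.30-fold with CL097 in Tlr779 (1.72, SE 0.32, limma adjusted p = 0.00204). Samples with an intact Fas were not analysed here, so the level cannot be set against that of the wild-type gene. The values count reads over the whole gene: of the 1481 exon bases of the GENCODE transcript Fas-201, in 9 exons, 15.7% lie in exons 1 and 2, before intron 2 (34307279 to 34315178), in which the lpr element is known to sit. Reads before and after that element cannot be told apart in a value per gene.

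T cells and NK cells also express Fas, and some of their markers moved with it. The summed level of 7 T cell markers went from 74.6 (range 60.4 to 90.7) to 106 (84.3 to 122) CPM in Tlr9het, from 68.1 (57.8 to 74.5) to 85.0 (78.3 to 89.7) CPM in Tlr997 and from 58.6 (51.1 to 71.3) to 74.3 (56.4 to 99.5) CPM in Tlr779. Lck made up most of each sum. It averaged 6.03 log2 CPM without and 6.42 with CpG in Tlr9het, and 5.96 and 6.15 in Tlr997. In Tlr779 it averaged 5.74 without and 6.05 with CL097. Of the 7 markers tested, Cd8a was called higher with CpG in Tlr9het, and Cd8a and Thy1 in Tlr997. In Tlr779 only Lck passed the filter, and it was not called. Of the defining markers of the T cell receptor complex, Cd3e averaged -0.08 log2 CPM without and 1.55 log2 CPM with CpG in Tlr9het, -0.47 and 0.39 in Tlr997, and -0.46 and -2.74 without and with CL097 in Tlr779. Cd8a averaged -0.75 and 1.23 log2 CPM without and with CL097. The 5 NK cell markers summed to 7.71 and 12.4 CPM without and with CpG in Tlr9het, 5.59 and 9.36 CPM in Tlr997, and 6.63 and 4.44 CPM without and with CL097 in Tlr779. Of the 4 tested with CpG, Ncr1 (log2 fold change 2.86) and Gzma (2.38) were called higher in Tlr9het, and Ncr1 (2.44), Gzma (1.52) and Eomes (2.65) in Tlr997. With CL097, Prf1 and Eomes were tested and not called, and Ncr1 averaged -3.19 and -2.22 and Gzma -3.14 and -2.28 log2 CPM without and with the agonist. The part of these cells in the responses of Fas was not tested.

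**Figure D3:**
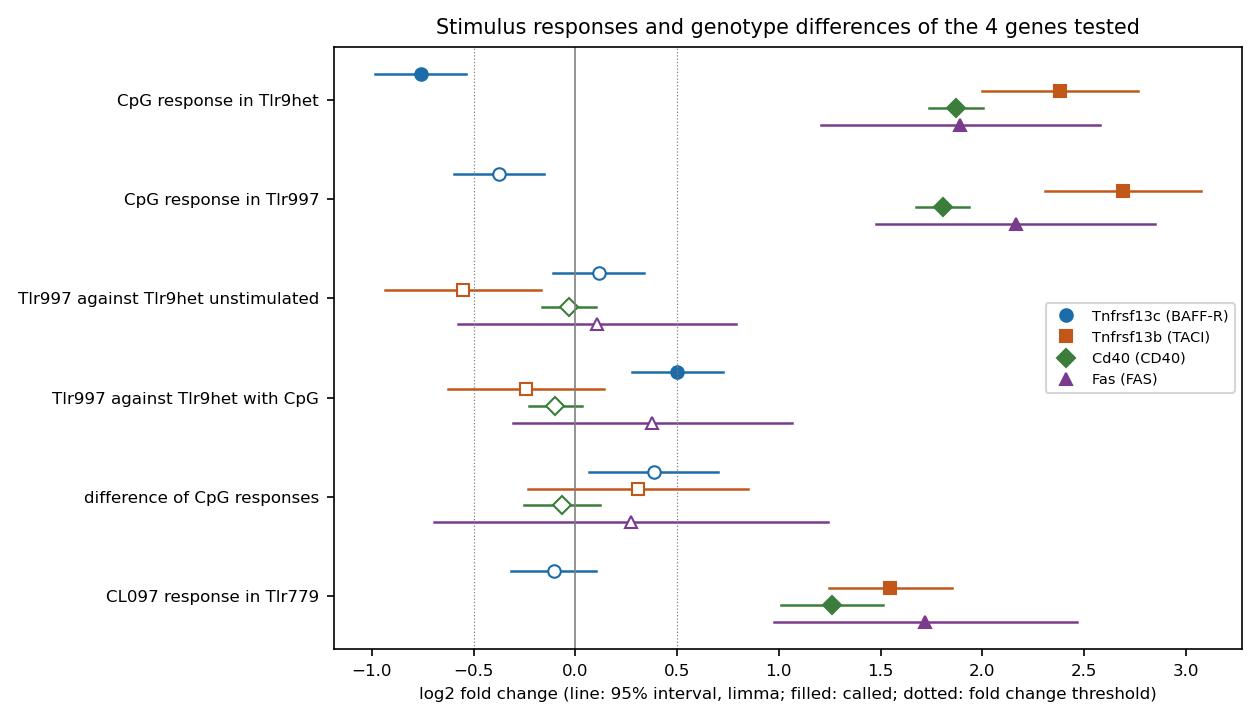
log2 fold change (x axis) of the 4 tested genes in each comparison (y axis), as points with limma's 95% interval, filled where the gene was called, with dotted lines at the fold change threshold. TACI, CD40 and Fas are filled far to the right in the 3 stimulus responses, and between the genotypes the single filled point is BAFF-R with CpG, at 0.50.

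Before stimulation, 0 of the 4 tested genes were called between Tlr997 and Tlr9het, where 0.0174% of 11494 genes were. At an unadjusted p under 0.05, 1 of the 4 passed with limma, where 10.8% of all genes did. That gene was TACI, which was 0.55 lower in Tlr997 on the log2 scale (95% interval -0.94 to -0.17, limma adjusted p = 0.346). The TACI libraries of these groups did not overlap. Without Tlr997 unstimulated replicate 3, the difference was -0.27 on the log2 scale. BAFF-R differed by 0.12 (95% interval -0.11 to 0.34), CD40 by -0.03 (-0.16 to 0.10) and Fas by 0.11 (-0.58 to 0.79) on the log2 scale, Tlr997 minus Tlr9het.

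With CpG, 1 of the 4 was called between the genotypes, BAFF-R, where 2.72% of genes were called in either direction. It was 1.41-fold higher in Tlr997 (log2 fold change 0.50, SE 0.10, 95% interval 0.28 to 0.72, limma adjusted p = 0.01255), and the 3 Tlr997 libraries lay above the 3 Tlr9het libraries. The value sat at the fold change threshold. Without Tlr997 CpG replicate 2 it was 0.43 (limma adjusted p = 0.0587), without Tlr9het CpG replicate 1 it was 0.495 (limma adjusted p = 0.0535), and neither was called. Markers of B cells moved the same way, with Ms4a1, Cd79b and Cd22 called higher in Tlr997 with CpG (log2 fold changes 1.26, 1.04 and 0.58) and the other 3 of the 6 not called, and the part of this in the BAFF-R difference was not tested. TACI differed by -0.24 (95% interval -0.63 to 0.14), CD40 by -0.10 (-0.23 to 0.03) and Fas by 0.38 (-0.31 to 1.06) on the log2 scale, and none of these 3 was called.

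The difference of the CpG responses, Tlr997 minus Tlr9het, asks whether the exchanged TIR domain changed the response itself. None of the 4 tested genes was called, where 1.55% of genes were. At an unadjusted p under 0.05 with limma, 1 of the 4 passed, BAFF-R, where 16% of all genes did. The log2 difference of BAFF-R was 0.39 (95% interval 0.07 to 0.70, limma adjusted p = 0.2155). Without Tlr997 unstimulated replicate 3 it was 0.51 (limma adjusted p = 0.0304) and was called. For TACI the log2 difference of responses was 0.31 (95% interval -0.23 to 0.85), for Fas 0.27 (-0.70 to 1.24) and for CD40 -0.07 (-0.25 to 0.12). The CD40 interval was the narrowest of the 4.

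**Figure D4:**
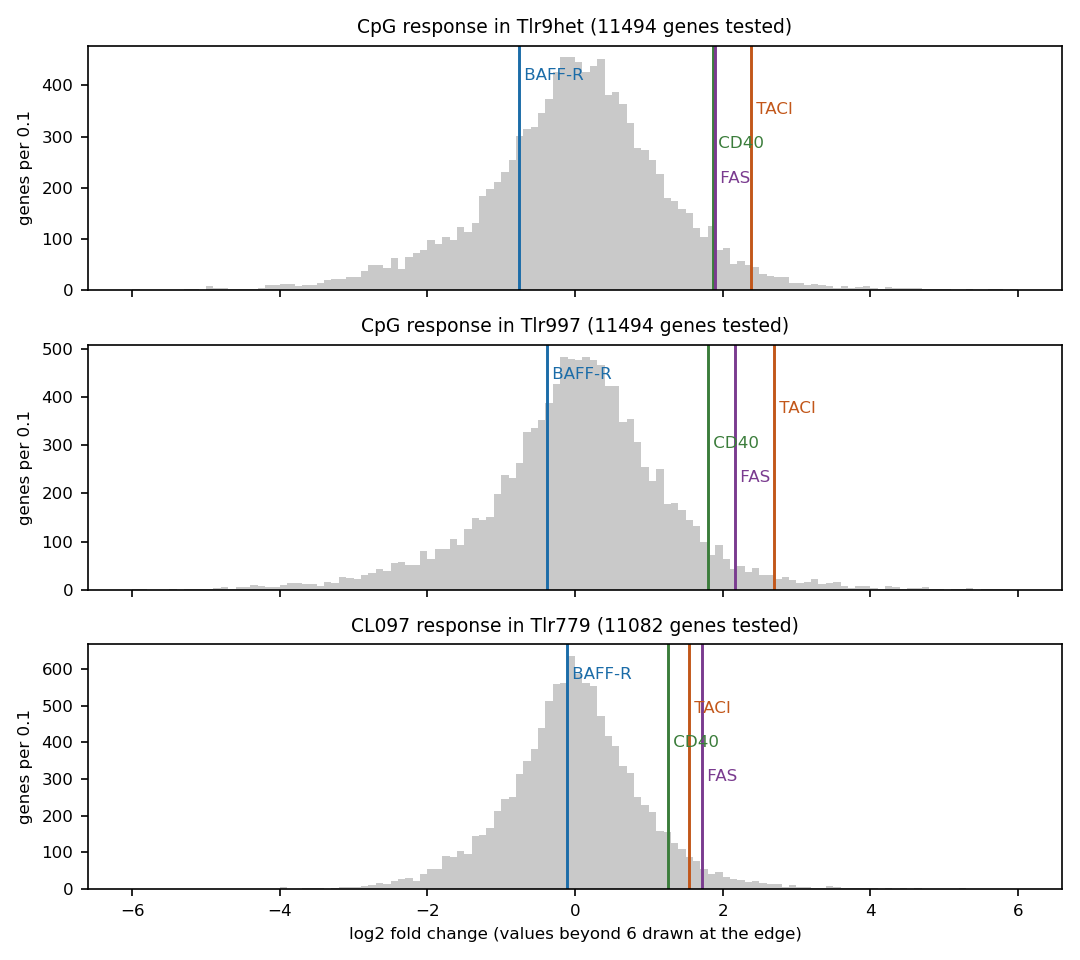
Number of genes per 0.1 log2 unit (y axis) against log2 fold change (x axis) for all genes tested in the 3 stimulus responses, with vertical lines at the 4 tested genes. TACI, CD40 and Fas stand in the right tail of each response, between the 92.3 and 97.8 percentiles, and BAFF-R at the 23.6, 32.3 and 44.8 percentiles.

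The partners of these receptors were followed in 5 lists. The other ligands, APRIL (Tnfsf13), CD40 ligand (Cd40lg) and Fas ligand (Fasl), did not pass the filter in any comparison, so 0 of 3 were tested. Their group means ran from -5.05 to -2.93 log2 CPM for Tnfsf13, from -5.05 to -3.33 for Cd40lg and from -2.25 to -0.58 for Fasl. Transcripts of the ligands of these receptors were thus at or under 1 CPM in every group mean, BAFF included.

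Of 20 other TNF receptors, 19 were tested with CpG and 18 with CL097. CpG raised 9 and lowered 5 in Tlr9het (median log2 fold change 0.52, beside 0.04 over all genes) and raised 10 and lowered 5 in Tlr997 (0.53, beside 0.07). CL097 raised 8 and lowered 3 (0.45, beside -0.02). The receptor with the largest rise in each response was Tnfrsf8 (CD30), which went from -3.30 ± 0.57 (SD, n = 3) to 4.11 ± 0.09 log2 CPM in Tlr9het, from -2.75 ± 1.74 to 3.45 ± 0.22 in Tlr997 and from -1.79 ± 0.69 to 2.86 ± 0.23 in Tlr779 (limma adjusted p = 2.48e-07, 1.67e-06 and 3.45e-05). Ngfr, the low-affinity nerve growth factor receptor, fell the most, from 1.41 ± 0.38 to -3.75 ± 1.06 log2 CPM in Tlr9het, from 0.96 ± 0.25 to -2.58 ± 0.28 in Tlr997 and from 1.04 ± 0.19 to -5.05 ± 0.17 in Tlr779 (limma adjusted p = 3.41e-06, 0.00013 and 6.11e-05). Because one side of most of these changes was under the level of 3 counts, no fold is given for either gene.

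Among 12 tested genes of TRAF and alternative NF-κB signaling, through which BAFF-R and CD40 act, 2 rose and 4 fell with CpG in Tlr9het, 2 rose and 3 fell in Tlr997, and 2 rose and 2 fell with CL097. Traf1, an adaptor that NF-κB is known to induce, rose the most, with log2 fold changes of 2.85 (SE 0.13) and 2.66 (SE 0.13) with CpG in Tlr9het and Tlr997 and of 2.45 (SE 0.19) with CL097 (limma adjusted p = 2.75e-10, 6.8e-10 and 1.99e-05). Traf5 fell the most, by 1.72, 1.53 and 1.09 on the log2 scale (limma adjusted p = 2e-10, 7.45e-10 and 0.000797). The list medians were -0.03, 0.01 and 0.14. Birc2, an inhibitor of apoptosis that works with TRAF2 and TRAF3 to hold back the alternative pathway, was the single gene of the 5 lists called in the difference of CpG responses, where 1.55% of all genes were. It went from 7.00 to 6.37 log2 CPM in Tlr9het and from 6.85 to 6.84 log2 CPM in Tlr997, a log2 difference of responses of 0.62 (SE 0.13, limma adjusted p = 0.0292).

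Receptors and ligands of this family are cut from the cell surface or during secretion by a small set of proteases. Of 9 tested genes for receptor shedding and ligand processing, CpG raised 1 and lowered 5 in Tlr9het (median log2 fold change -0.57) and raised 1 and lowered 4 in Tlr997 (-0.63), and CL097 raised 1 and lowered 3 (-0.47). The gene that rose was Furin, the protease that releases soluble BAFF and APRIL, with log2 fold changes of 1.31 (SE 0.09), 0.97 (SE 0.09) and 1.09 (SE 0.13) in Tlr9het, Tlr997 and Tlr779 (limma adjusted p = 2.78e-08, 6.91e-07 and 0.000192). The largest called falls were in Aph1b, a gamma-secretase subunit whose reads may be shared with its near copy Aph1c, in Tlr9het (log2 fold change -1.54, SE 0.58, limma adjusted p = 0.0284), in the sheddase Adam10 in Tlr997 (-1.14, SE 0.07, limma adjusted p = 3.08e-09), and in the presenilin Psen2 with CL097 (-0.70, SE 0.09, limma adjusted p = 0.000194). In Tlr997 Aph1b had a log2 fold change of -1.23 that was not called (limma adjusted p = 0.073).

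Downstream of Fas, 10 genes were tested. CpG raised 3 and lowered 4 in both genotypes (median log2 fold changes -0.33 and -0.23), and CL097 raised 1 and lowered 3 (-0.39). Cflar, which encodes c-FLIP, an inhibitor of caspase-8 activation at the receptor, rose the most, with log2 fold changes of 2.47 (SE 0.07), 2.18 (SE 0.07) and 2.24 (SE 0.08) in Tlr9het, Tlr997 and Tlr779 (limma adjusted p = 6.44e-12, 2.36e-11 and 2.03e-06). Faim3, the Fc receptor for IgM that was first described as an inhibitor of Fas-induced apoptosis, fell the most, by 2.81, 2.61 and 1.59 on the log2 scale (limma adjusted p = 1.84e-11, 4.84e-11 and 3.09e-05). None of the 5 lists had a gene called between the genotypes without stimulus or with CpG, where 0.0174% and 2.72% of all genes were.

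**Figure D5:**
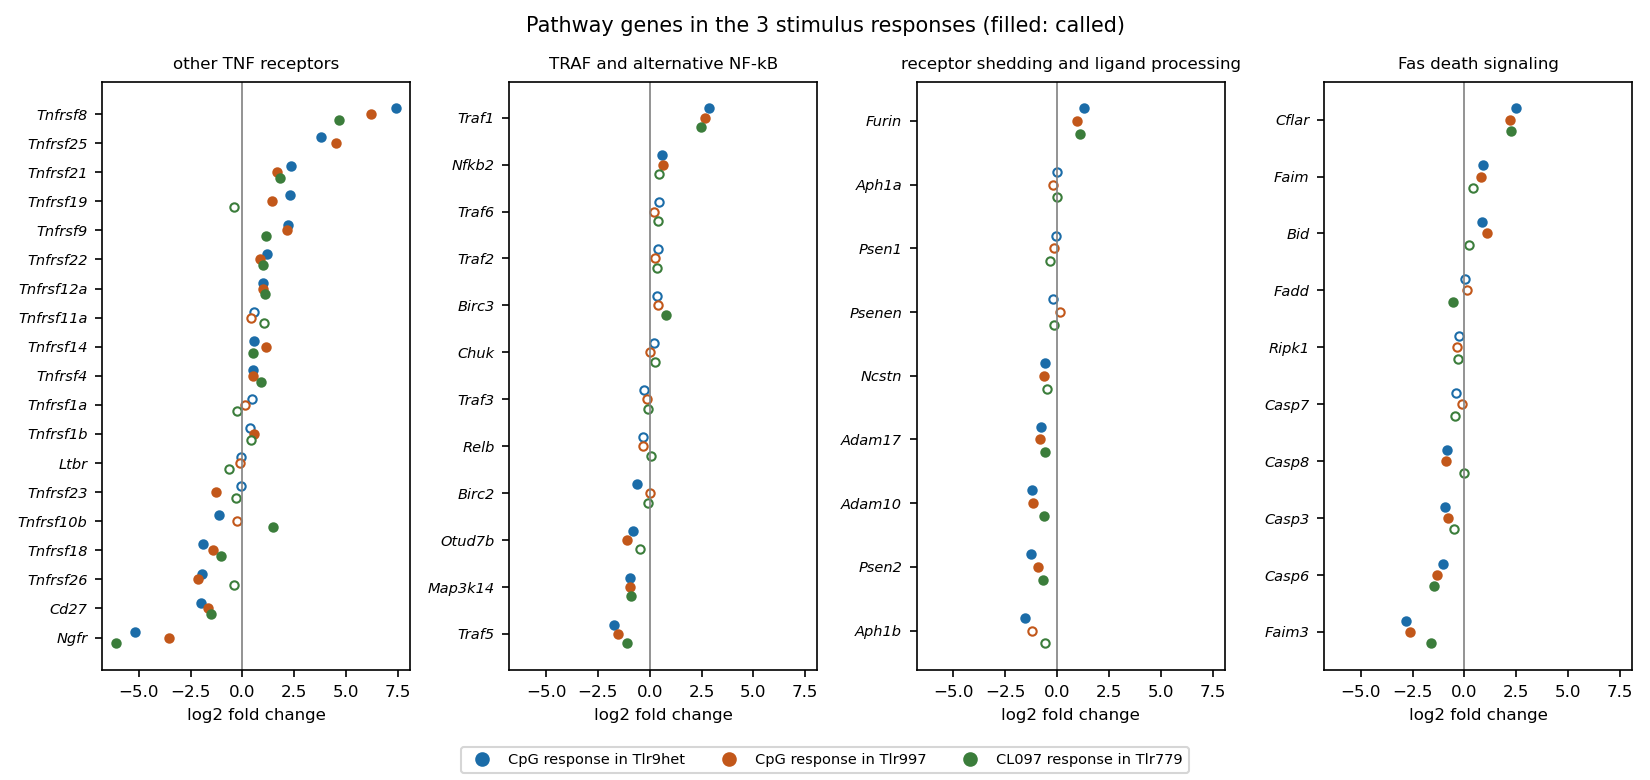
log2 fold change (x axis) of each tested gene of 4 pathway lists (y axis, 1 panel per list) in the 3 stimulus responses (colors), filled where called. Tnfrsf8, Traf1, Furin and Cflar lie farthest to the right in their lists in each response, and Ngfr, Traf5 and Faim3 are the genes that fell the most in theirs.

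The genes with the profile nearest to each member were found by the root mean square (RMS) difference of the 6 centred group means in log2 CPM, among the 9365 genes with a mean over 2 log2 CPM. For CD40 they were Txnrd3 (RMS difference 0.04), Ak7 (0.06) and Kbtbd8 (0.07), all within the spread of CD40 itself, whose largest group SD was 0.20. For BAFF-R they were the ubiquitin ligase Nedd4 (0.08), Tcf19 (0.10) and Adi1 (0.105), and for Fas they were Hmgn3 (0.12), the replication origin subunit Orc1 (0.12) and the neurofilament gene Nefh (0.13). For TACI they were Rangrf (0.14), Yae1d1 (0.14) and the serine hydroxymethyltransferase Shmt1 (0.16). The scarce genes had no close neighbor, the nearest being Kit for BCMA (0.46) and Met for BAFF (0.36). This likeness is over 6 group means and says nothing of shared control.

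Across groups, the order of BAFF-R from high to low was Tlr779 unstimulated, Tlr779 with CL097, Tlr997 unstimulated, Tlr9het unstimulated, Tlr997 with CpG and Tlr9het with CpG, and only the last step separated neighbors without overlap. For TACI the 3 stimulated groups came first, in the order Tlr9het, Tlr997 and Tlr779, each without overlap to the next. CD40 had the same order of stimulated groups, with overlap between Tlr9het and Tlr997. The 3 stimulated groups of Fas overlapped with each other, and of its unstimulated groups only Tlr9het and Tlr779 did not overlap. The libraries with the same replicate number moved the same way in all 3 genotypes for TACI, CD40 and Fas, with 3 of 3 higher in each, and BAFF-R was lower in 3 of 3 in both Tlr7-/- genotypes and in 2 of 3 in Tlr779.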

How the data were processed

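Per the submitters' notes, the authors trimmed reads with Trim Galore 0.6.5, aligned them to mm10 with STAR 2.6.1a and counted them per gene with featureCounts (Subread 2.0.1). The deposited values are log2 CPM after the authors' quantile normalization and voom transformation, for 23420 genes in each of 18 files, which include voom's offset of 0.5 counts. No counts were used, so depth is unknown and no counting intervals are given. Of 6614 genes near the lowest value in the Tlr7-/- arm, 6306 had 1 value per replicate number, and for 822 it differed between numbers, so an offset per number had been removed. Fits without a block on number do not count this step, so their p-values may be too small.

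limma 3.58.1 (R 4.3.3) was fitted to the deposited log2 values with a variance trend, with a mean per group in the 12 libraries of the Tlr7-/- arm and in the 6 of Tlr779. These main fits held no term for the replicate number, so they did not use the pairing described below. The fit was tested on simulated data. P-values were adjusted by Benjamini-Hochberg over all genes over 0 log2 CPM in at least 3 fitted libraries, and measure the spread between these 3 libraries per group. The members are defined by symbol alone, but they, the gene lists and the marker lists were chosen with earlier results of these data known. List genes are named where they had the largest called change in each direction of a list or were called in the difference of CpG responses. Exon lengths came from GENCODE M21 and promoters from RefSeq. Of the list symbols, Fcmr is Faim3 in the files and Camlg was not found.

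Same-numbered libraries correlated in their deviations from the group means at 0.524, 0.27 and 0.514 (Tlr9het), 0.219, 0.413 and 0.284 (Tlr779) and 0.394, 0.066 and 0.036 (Tlr997). The numbers were thus taken to pair the libraries of Tlr9het and Tlr779, and these values do not settle whether they pair those of Tlr997. There, the erythroid marker Alas2 followed the number, at 8.69, 4.01 and 5.34 log2 CPM without and 7.74, 3.78 and 4.84 with CpG. Prdm1 did not, at 3.88, 4.21 and 2.62 without and 3.28, 3.43 and 3.66 with CpG. Alternatives were the filter, log2(CPM + 1), no variance trend, library weights, median centring, all 18 libraries, other fold change thresholds, a replicate block and leaving out each library.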

Additional observations from a re-analysis of the deposited data

How the results depend on the processing

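Over 531 recomputed values of the 4 tested genes, 522 kept direction and call, and the other 9 all concerned BAFF-R. With a log2 threshold of 1, its fall with CpG in Tlr9het (-0.761) and its genotype difference with CpG (0.501) were not called by construction. With no fold change threshold, its fall in Tlr997 (-0.376) was called. The genotype difference with CpG was also not called with no filter on low values (0.501), as log2(CPM + 1) (0.497) and with each library centred on its median (0.496), and ran from 0.431 to 0.548 when single libraries were left out. The difference of CpG responses ran from 0.311 to 0.513 in the same way. The block on replicate number changed no call of these genes, and the paired fit within genotype gave 0.385 for the BAFF-R difference of responses (limma adjusted p = 0.124). The counts of genes called were 4059 (CpG, Tlr9het), 3768 (CpG, Tlr997), 2581 (CL097), 74 (genotypes with CpG) and 46 (difference of responses) at a log2 threshold of 1, and 680 for genotypes with CpG at none. Genotypes with CpG gave 187 with no filter, 485 with library weights and 187 to 410 when single libraries were left out, beside 313. Unstimulated genotypes gave 0 with no filter and with the compared libraries alone, and 2 to 4 when single libraries were left out, beside 2. The difference of responses gave 78 with no filter, 98 with no variance trend, 377 with library weights, 328 with the replicate block within genotype and 87 to 295 when single libraries were left out, beside 178. The lowest of these, 87, was without Tlr9het unstimulated replicate 1 and the highest, 295, without Tlr997 unstimulated replicate 3. Causes other than the thresholds were not tested. Depth is unknown, and with 3 libraries per group BCMA and BAFF near the level of 3 counts could be fitted only with no filter on low values, where BAFF with CpG in Tlr997 was past both thresholds. That fit was not repeated with single libraries left out, Tlr997 unstimulated replicate 3 included.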
